A study of Mus musculus with 6 samples.

Results

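10 genes of bone morphogenetic protein (BMP) signalling were examined in sorted dermal fibroblasts: the ligand genes Bmp2, Bmp4 and Bmp7, the receptor genes Bmpr1a and Bmpr2, the antagonist genes Grem1 and Chrdl1, and the target genes Id1, Id2 and Id3. They were chosen by symbol, and every probe set (a group of array probes for 1 transcript) whose platform annotation names only one of them was taken. This gave 24 probe sets for 10 of the 18193 genes measured, and all 24 were kept, since no filter on dim values was applied. Both groups were PDGFRα-positive fibroblasts, sorted by flow cytometry from ear cell suspensions of male mice aged 4 months. Cancer-associated fibroblasts (CAF, 3 arrays) were taken from ears with visible dysplasia in K14-HPV16 mice (strain label HPV16). In this line the keratin 14 promoter drives human papillomavirus genes in basal keratinocytes. The transgene is thus directed to the epidermis and not to dermal fibroblasts. Normal dermal fibroblasts (NDF, 3 arrays) came from normal ears of age-matched mice of strain FVB/n without the transgene. The titles call the 3 arrays of each group biological repetitions. The protocol names 15 mice per genotype and does not state whether repetitions were pooled separately. The p-values therefore reflect only how far these arrays spread, which may be in part technical if they shared a pool.

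BMPs are secreted dimers that bring together type I receptors, such as the one Bmpr1a encodes, and type II receptors, such as the one Bmpr2 encodes. The active complex phosphorylates the receptor-regulated Smads, which join Smad4 and switch on the Id genes. Secreted antagonists such as gremlin 1 and chordin-like 1 bind the ligands and keep them from their receptors. Id proteins dimerise with basic helix-loop-helix (bHLH) factors and, lacking a DNA-binding region, hold them off DNA. In skin, dermal BMPs help to keep hair follicle stem cells at rest, and in human basal cell carcinoma GREM1 has been found in the stroma around the tumour.

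Values are log2 intensities, where 1 unit is a 2-fold step, and array medians ran from 4.73 to 4.87. CAF replicate 3 stood apart from the other arrays, with correlations of 0.913 to 0.932 over all probe sets, against 0.960 to 0.983 between the other arrays. The sort marker Pdgfra averaged 12.54 ± 0.11 in CAF and 12.46 ± 0.15 in NDF (SD, n = 3 each), and the 12 dermal fibroblast genes had a median difference of -0.17, with 0 called. Marker genes of other cells also gave signal. The 14 macrophage and dendritic cell genes had a median difference of 2.57, from -0.10 to 4.68. Of them 2 were called, Tyrobp and Ptprc, the latter a gene of leukocytes in general. Their array means were 7.04 to 8.45 in CAF against 4.87 to 5.65 in NDF for the 14 genes. The 9 neutrophil genes had a median difference of 3.32, with 3 called, and array means of 7.37 to 8.62 in CAF against 4.06 to 5.01 in NDF. The 14 endothelial genes differed by a median of 1.46, with 1 called (array means 6.75 to 7.65 in CAF, 5.63 to 5.88 in NDF), and the 14 keratinocyte genes by 1.08, with 0 called (8.01 to 9.26 in CAF, 7.53 to 7.64 in NDF). The 8 lymphocyte genes differed by a median of 1.40, from -0.03 to 4.48, with 2 called. The 7 chondrocyte genes differed the other way, by a median of -0.72 with 0 called (10.10 to 10.72 in CAF, 10.99 to 11.33 in NDF). Medians were 0.44 for the 9 pericyte and smooth muscle genes, 0.44 for the 8 mast cell genes, 0.23 for the 6 melanocyte and Schwann cell genes and 0.18 for the 4 adipocyte genes, with 0 called in each. The 19 immediate-early genes, a class that dissociating a tissue can also induce, differed by a median of 1.55, with 5 called. The first gene of each list, taken as its defining marker, differed by 4.33 for Ptprc (leukocytes), 6.04 for S100a8 (neutrophils), 1.53 for Pecam1 (endothelium), 1.65 for Krt5 (keratinocytes), 4.05 for Cd3e (lymphocytes), 1.58 for Rgs5 (pericytes), 0.24 for Kit (mast cells), 1.31 for Dct (melanocytes), -0.05 for Adipoq (adipocytes), -0.38 for Acan (chondrocytes) and 0.82 for Fos (immediate-early). Of these first genes only Ptprc and S100a8 were called (limma adjusted p = 0.0197 and 0.0304). For Kit, Dct, Adipoq and Acan the CAF and NDF arrays overlapped. The scale has no true zero, so no marker can be said to be at 0. In such bulk samples fewer cells of a type and less RNA per cell cannot be told apart.

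None of the BMP genes was called different between fibroblasts of dysplastic and of normal skin, and the 3 Id target genes had the smallest differences over the 6 arrays. By limma with Benjamini-Hochberg adjustment over all genes, 0 of the 10 passed an adjusted p under 0.05, where 0.517% of all genes did, and 0 passed an unadjusted p under 0.05, where 8.95% of all genes did. Of the differences (CAF minus NDF), 6 were above 0 and 4 below, with a median of 0.05, against -0.04 over all genes. Their median size was 0.23, against 0.20 over all genes. On the probe set of highest mean, the 95% interval of the difference lay within 1 log2 unit of 0 for Bmpr1a, Bmpr2, Id1, Id2 and Id3, so a 2-fold difference in either direction was outside it. Over all 6 arrays the interval stayed within 1 unit on every probe set of the Id genes. For Id1 this depended on the arrays fitted, as its difference ran from -0.33 to 0.25 with 1 left out. Its SE was then as wide as 0.42, without NDF replicate 3. For Bmpr1a (1425493_at, 1425494_s_at and 1451729_at) and Bmpr2 (1419616_at) the interval reached past 1 unit on other probe sets. For the other 5 genes the interval reached past 1 unit on at least one side, and a 2-fold difference was not excluded at this number of arrays. The count of 0 called members held with each array left out in turn, and without CAF replicate 3 and NDF replicate 1 together. Of all genes, 5 to 156 were called with 1 array left out, and 113 without that pair. With so few calls among 18193 genes, a count of 0 among 10 says little about these genes.

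**Figure D1:**
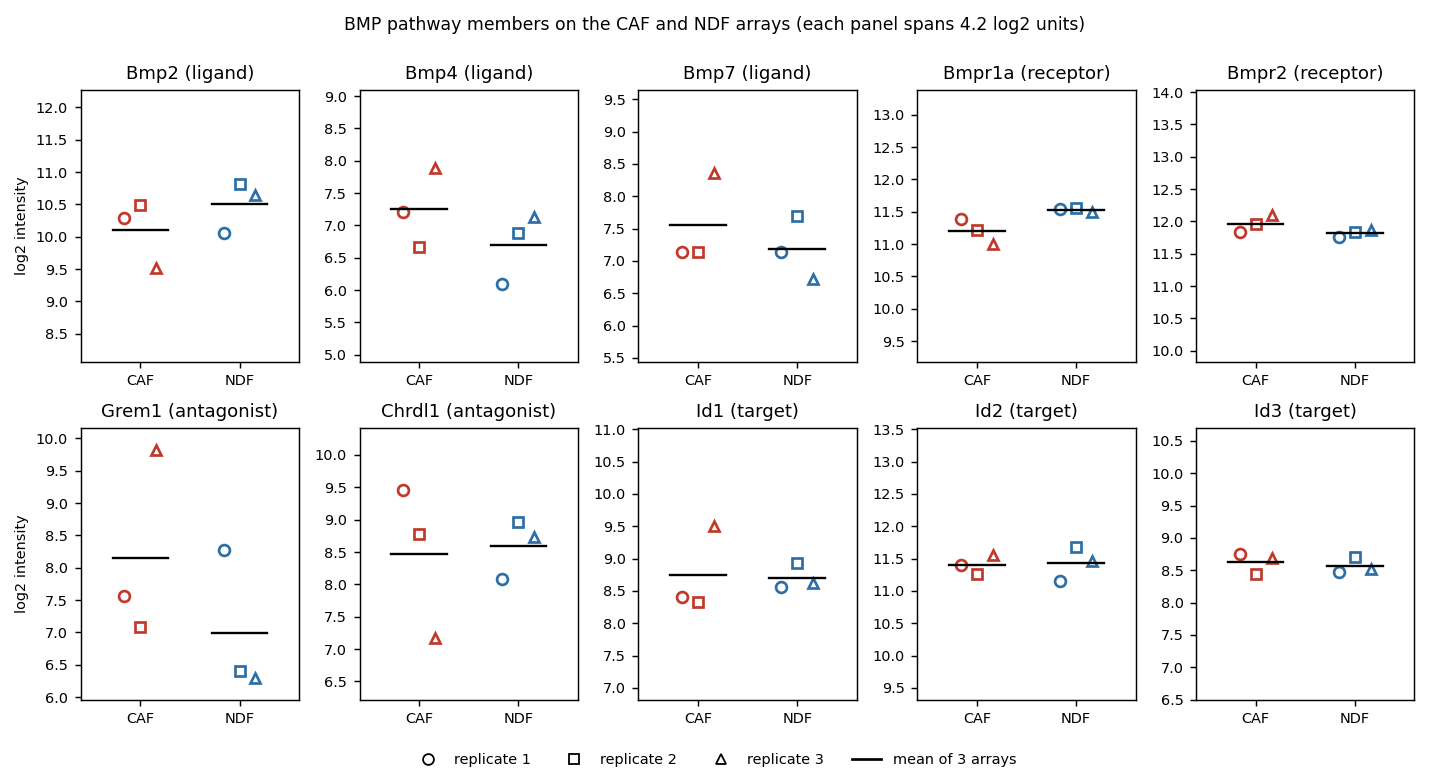
Log2 intensity of the 10 BMP genes, with CAF at the left and NDF at the right of each panel, 1 symbol per array and a bar for the mean of 3 arrays. Every panel spans the same number of log2 units; the 3 NDF arrays of Bmpr1a sit at 11.49 to 11.55, above all CAF arrays, and the triangle of CAF replicate 3 lies far from the other CAF arrays for Grem1, Chrdl1, Bmp7 and Id1.

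The 3 ligand genes overlapped between the groups, and for each of them CAF replicate 3 was the highest or the lowest array. Bmp2, which encodes a ligand that also drives bone formation, had 10.30, 10.50 and 9.52 in CAF replicates 1 to 3, against 10.05, 10.81 and 10.64 in NDF replicates 1 to 3. CAF replicate 3 was the lowest array, and the difference was -0.40 ± 0.33 (SE, 95% interval -1.18 to 0.38, limma adjusted p = 0.834). The Bmp2 difference was -0.11 without CAF replicate 3, -0.62 without NDF replicate 1 and -0.24 without NDF replicate 2 (limma adjusted p = 0.883, 0.885 and 0.999). Bmp4, a ligand made by mesenchyme next to epithelium, had 7.21, 6.67 and 7.89 in CAF against 6.09, 6.88 and 7.13 in NDF. CAF replicate 3 was the highest array and NDF replicate 1 the lowest, and the difference of 0.55 ± 0.39 (-0.39 to 1.49, limma adjusted p = 0.802) was smaller than the range within either group. The Bmp4 difference ran from 0.24 to 0.85 with 1 array left out. Without both CAF replicate 3 and NDF replicate 1 it was -0.068 (limma adjusted p = 0.932).

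Bmp7, whose product is known from kidney and epithelial development, was read by 3 probe sets. The one with the highest mean (1435479_at) had 7.14, 7.14 and 8.36 in CAF against 7.14, 7.69 and 6.72 in NDF, a difference of 0.36 ± 0.41 (-0.61 to 1.34, limma adjusted p = 0.893). CAF replicates 1 and 2 lay inside the NDF range and CAF replicate 3 above it. Without CAF replicate 3 the difference was -0.042 (limma adjusted p = 0.962), and with the mean of the 3 probe sets it was 0.047 (limma adjusted p = 0.991). The other 2 probe sets differed by -0.14 and -0.09, and the dimmest (1432410_a_at), at 3.14 to 4.02 in CAF and 3.24 to 4.18 in NDF, was below the median probe set of the arrays (4.84), where this scale compresses differences.

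The type I receptor gene Bmpr1a was the one member whose groups did not overlap. On its probe set with the highest mean (1425492_at) it had 11.39, 11.22 and 11.01 in CAF, against 11.54, 11.55 and 11.49 in NDF. All CAF arrays lay below all NDF arrays, as they did for 8.66% of all genes. The difference was -0.32 ± 0.18 (-0.75 to 0.10, limma adjusted p = 0.699), and it stayed below 0 and short of the threshold in all 19 settings in which it was recomputed.

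Of the 6 Bmpr1a probe sets, 4 had all CAF arrays below all NDF arrays, where 7.98% of all probe sets did, and 4 of the 24 member probe sets had groups that did not overlap, where 13.9% of all probe sets had such groups. Tested over all probe sets, 0 of the 24 passed the adjusted threshold, where 0.226% of all probe sets did. Probe set 1425493_at had 10.92, 10.60 and 9.63 in CAF against 11.23, 11.27 and 11.20 in NDF, a difference of -0.85 ± 0.34 (-1.66 to -0.05, limma adjusted p = 0.604). Probe set 1425494_s_at had 10.03, 9.61 and 9.11 in CAF against 10.25, 10.50 and 10.33 in NDF, a difference of -0.78 ± 0.26 (-1.40 to -0.15, limma adjusted p = 0.505). These were the 2 of 24 probe sets with an unadjusted p under 0.05, where 7.78% of all probe sets had one. Probe set 1425491_at had 10.10, 9.80 and 10.28 in CAF against 10.46, 10.43 and 10.49 in NDF, a difference of -0.40 ± 0.19 (limma adjusted p = 0.714). The NDF arrays were close together on these 4 probe sets, with SDs of 0.03 to 0.13, and the CAF arrays spread wider, with SDs of 0.19 to 0.67. CAF replicate 3 was the lowest array on 3 of the 4, and without it 1425494_s_at still differed by -0.54 (limma adjusted p = 0.408). The 4 are not independent readings, since 5 of the 6 Bmpr1a probe sets, these 4 among them, are annotated to a single target sequence. The fifth of these (1451729_at) differed by 0.05, and the sixth (1445413_at), below the 25th percentile of probe sets, by 0.20.

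**Figure D2:**
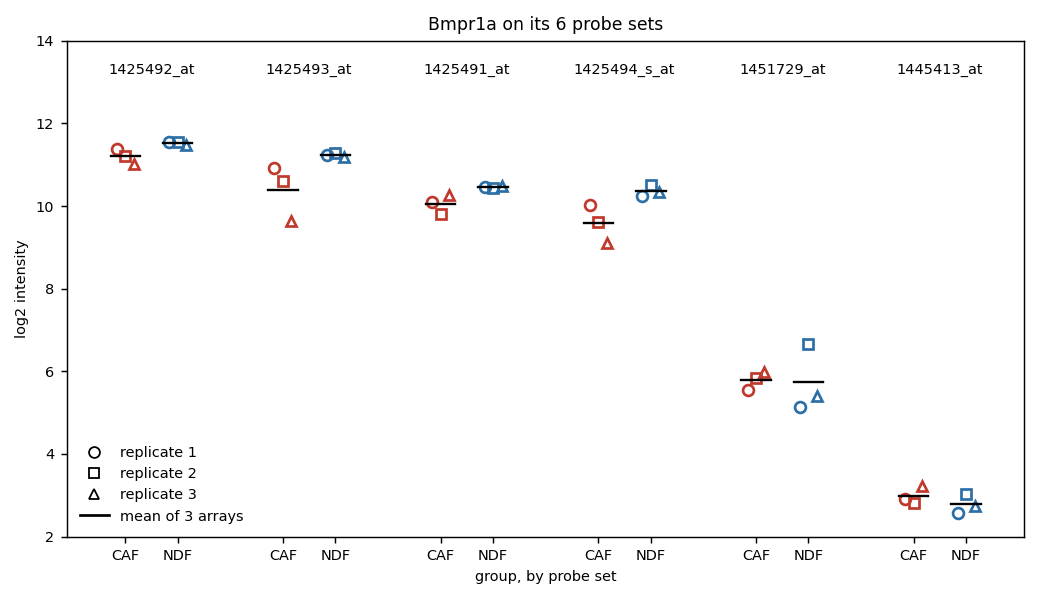
Log2 intensity of Bmpr1a on each of its 6 probe sets, ordered by mean, with CAF left of NDF, 1 symbol per array and a bar for the mean of 3 arrays. On the 4 brightest probe sets all CAF arrays lie below all NDF arrays, by mean differences of -0.85 to -0.32, and on the 2 dimmest the groups overlap.

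The type II receptor gene Bmpr2 had 11.83, 11.96 and 12.09 in CAF against 11.76, 11.83 and 11.87 in NDF (1434310_at). The groups overlapped at their edge, and the difference was 0.14 ± 0.17 (-0.26 to 0.54, limma adjusted p = 0.905). Its other probe sets had the opposite sign. Probe set 1419616_at had 6.24, 6.51 and 6.35 in CAF against 6.35, 7.84 and 7.09 in NDF, a difference of -0.72 ± 0.37 (-1.61 to 0.16, limma adjusted p = 0.750), and 1441652_at differed by -0.36. With the mean of its 3 probe sets Bmpr2 differed by -0.32 (limma adjusted p = 0.813), so its sign depended on the probe set read.

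Grem1, which encodes gremlin 1, an antagonist of BMP2 and BMP4, had the widest spread and the largest difference of the 10 genes. Its single probe set (1425357_a_at) had 7.56, 7.08 and 9.82 in CAF against 8.28, 6.40 and 6.30 in NDF. CAF replicate 3 stood more than 2 units above the other CAF arrays, and NDF replicate 1 lay above CAF replicates 1 and 2. The difference was 1.16 ± 0.83 with an interval of -0.81 to 3.14 (limma adjusted p = 0.802), the widest of the 10. Without CAF replicate 3 it was 0.33 (limma adjusted p = 0.847), and without NDF replicate 1 it was 1.80 (limma adjusted p = 0.804). With both left out it was 0.97 ± 0.23 (limma adjusted p = 0.188), the smallest adjusted p of any member under the settings tried. This pair was chosen after seeing the data and held the highest Grem1 value of each group. Leaving it out narrows the spread by that choice, so the smaller SE is no support for a difference.

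Chrdl1, which encodes the BMP antagonist chordin-like 1, had 9.46, 8.77 and 7.17 in CAF against 8.08, 8.96 and 8.73 in NDF (1434201_at). CAF replicate 1 was the highest and CAF replicate 3 the lowest of the 6 arrays, so the NDF values lay within the CAF range. The difference was -0.12 ± 0.58 (-1.50 to 1.26, limma adjusted p = 0.982), and without CAF replicate 3 it was 0.53 (limma adjusted p = 0.565). The other 3 probe sets differed by 0.01, 0.41 and -0.04. On probe set 1456722_at CAF replicate 3 was again the lowest array, at 7.23, against 8.23, 8.49 and 8.27 in NDF.

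The Id genes, the targets read here as the output of the pathway, had the 3 smallest differences of the 10 genes over all 6 arrays. Id1 had 8.41, 8.33 and 9.50 in CAF against 8.55, 8.92 and 8.62 in NDF, a difference of 0.05 ± 0.34 (-0.76 to 0.86, limma adjusted p = 0.988). CAF replicates 1 and 2 were below all NDF arrays and CAF replicate 3 above them, and without replicate 3 the difference was -0.33 (limma adjusted p = 0.508). Id2, which is also used by lymphoid and dendritic cells, had 11.40, 11.26 and 11.55 in CAF against 11.16, 11.67 and 11.46 in NDF (1435176_a_at). Its difference was -0.03 ± 0.20 (-0.51 to 0.46, limma adjusted p = 0.988), with all CAF arrays inside the NDF range. The second Id2 probe set (1422537_a_at) differed by -0.11 and the third (1453596_at), below the 25th percentile of probe sets, by 0.22. Id3 had 8.76, 8.44 and 8.69 in CAF against 8.47, 8.71 and 8.52 in NDF, a difference of 0.06 ± 0.18 (-0.37 to 0.49, limma adjusted p = 0.971). Id1 and Id3 are also strongly expressed in endothelium. The 14 endothelial genes differed by a median of 1.46 on these arrays, from -0.24 to 3.38, with 1 called. The part of other cells in these values was not tested.

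The windows before the Id2 and Id3 starts are shown because these are the targets through which the pathway was read. They come from RefSeq (GRCm38.p6), whose promoter table matched 6 of the 10 genes (Bmp4, Bmpr1a, Bmpr2, Grem1, Id2 and Id3), and each holds the 250 bases before the annotated start, 5′ to 3′. Id2 is at chr12:25096093-25096342 on the minus strand and Id3 at chr4:136143572-136143821 on the plus strand. Capitals mark 2 motifs of Smad proteins searched on both strands: GGCGCC, a GC-rich element of BMP-responsive genes that reads the same on both strands, and GTCTG with its complement CAGAC, the core of the Smad binding element.
Id2: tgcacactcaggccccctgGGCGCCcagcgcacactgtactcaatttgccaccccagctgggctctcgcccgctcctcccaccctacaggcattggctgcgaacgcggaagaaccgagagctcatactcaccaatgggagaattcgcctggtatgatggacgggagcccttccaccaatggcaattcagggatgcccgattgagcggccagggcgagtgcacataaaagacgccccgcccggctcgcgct
Id3: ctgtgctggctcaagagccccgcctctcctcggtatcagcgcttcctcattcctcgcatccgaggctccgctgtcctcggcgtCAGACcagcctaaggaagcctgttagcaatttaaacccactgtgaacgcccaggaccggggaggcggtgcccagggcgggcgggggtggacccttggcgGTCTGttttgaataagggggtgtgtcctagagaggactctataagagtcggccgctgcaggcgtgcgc
The Id2 window held GGCGCC once, starting 231 bases before the start. The Id3 window held CAGAC 167 bases and GTCTG 68 bases before the start, and no matches overlapped. GGCGCC occurred in 9.59% of the 32851 windows of the table and in 4 of the 6 matched genes (Bmpr1a, Bmpr2, Grem1 and Id2), and GTCTG or CAGAC in 42.2% of all windows and in 2 of the 6 (Grem1 and Id3). A match describes letters in this window only.

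**Figure D3:**
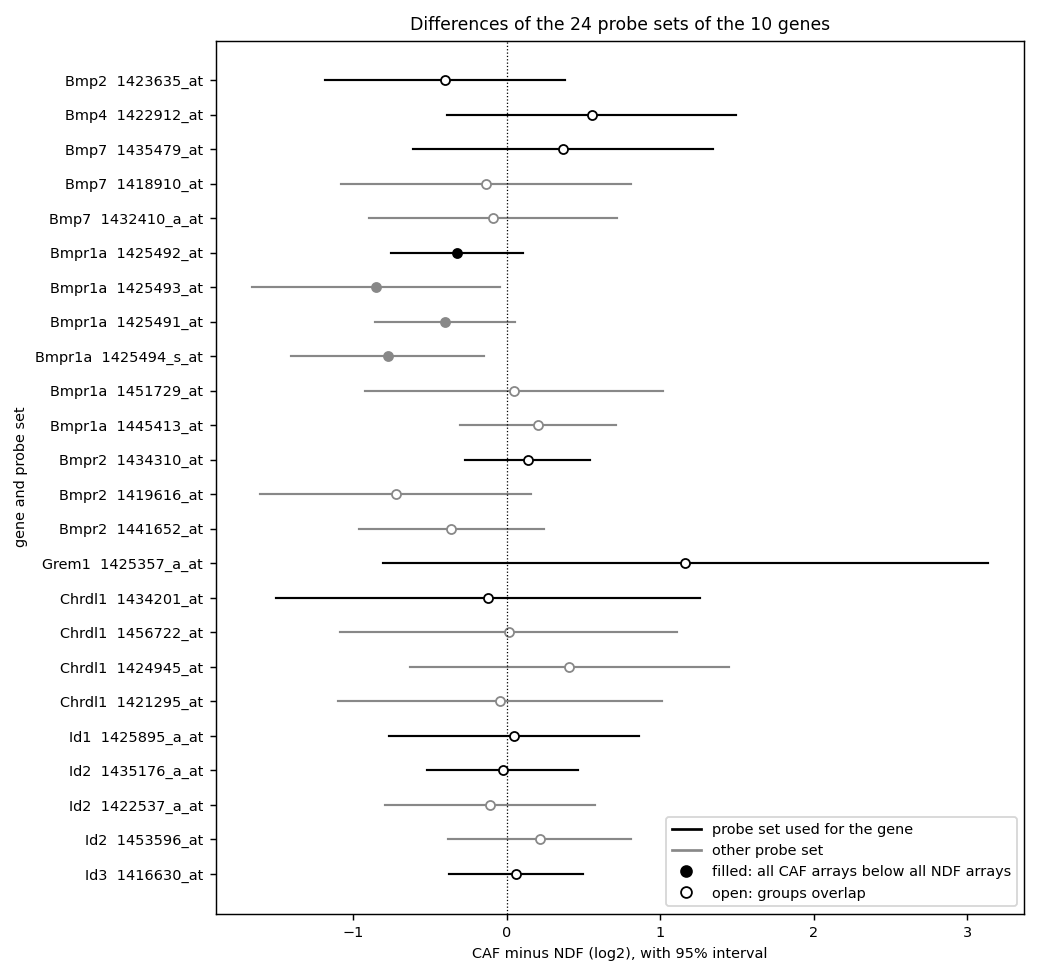
Difference between CAF and NDF (log2, CAF minus NDF) for each of the 24 probe sets, as a point with its 95% interval from limma over all probe sets. Filled points, all of them Bmpr1a, mark probe sets with all CAF arrays below all NDF arrays, and the interval of Grem1 is the widest.

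Within the CAF group a single array held most of the extreme values. CAF replicate 3 was the highest or the lowest of the 6 arrays for 8 of the 10 genes (all but Id2 and Id3), and it held such a place for 61.6% of all genes. It was highest for Bmp4, Bmp7, Bmpr2, Grem1 and Id1 and lowest for Bmp2, Bmpr1a and Chrdl1. Every other array had an extreme place for 2 or 3 of the 10 genes. The 5 members read by several probe sets (Bmp7, Bmpr1a, Bmpr2, Chrdl1 and Id2) all had probe sets of both signs, and 20 of the 24 probe sets were at or above the median probe set.

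The wider pathway was read through 65 further genes in 6 role lists, of which 60 had a probe set naming only them. By limma 0 of the 60 passed the adjusted threshold, and 7 had an unadjusted p under 0.05, 4 higher and 3 lower in CAF, where 8.95% of all genes had one. This count was 7, 8 and 7 without CAF replicates 1, 2 and 3. It was 2 without NDF replicate 1 and 4 without NDF replicate 2 or 3. No share of all genes at an unadjusted p under 0.05 is given for these fits. Of all genes, 11, 8 and 5 passed the adjusted threshold without NDF replicates 1, 2 and 3, against 94 with all arrays. The median difference of the 60 genes was -0.03, against -0.04 over all genes. The groups did not overlap for 12 of the 60, with 3 above and 9 below in CAF. Of all genes 15.4% had such groups, 6.78% above and 8.66% below.

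Among 9 further ligand genes the median difference was 0.06, and Gdf5, a ligand of joint and cartilage formation, was furthest from 0. It had 7.55, 8.14 and 7.40 in CAF against 8.89, 8.80 and 8.35 in NDF, a difference of -0.98 ± 0.26 (limma adjusted p = 0.263), with all CAF arrays below. Bmp5, a ligand whose loss shortens the mouse ear, had 11.53, 11.50 and 10.18 in CAF against 11.53, 11.82 and 11.77 in NDF, a difference of -0.63 (limma adjusted p = 0.743). CAF replicate 3 was the lowest Bmp5 array, and without it the difference was -0.19 (limma adjusted p = 0.670). Bmp8b differed by -0.32 (limma adjusted p = 0.809), by -0.11 without NDF replicate 3 and by 0.03 on its other probe set. Among 9 receptor and co-receptor genes the median was 0.02. Bmpr1b, the type I receptor gene used in cartilage, had 6.65, 6.29 and 4.91 in CAF against 7.14, 7.09 and 7.02 in NDF, a difference of -1.14 ± 0.44 (limma adjusted p = 0.506), while its other 2 probe sets differed by 0.01 and -0.08. CAF replicate 3 was the lowest Bmpr1b array, and without it the difference was -0.61 (limma adjusted p = 0.231). Beside Gdf5 and Bmpr1b, 4 of the 7 chondrocyte markers also had all CAF arrays below all NDF arrays, where 8.66% of all genes did. The part of chondrocytes in these values was not tested. Eng, the endothelial co-receptor endoglin, had 6.85, 6.77 and 6.91 in CAF against 6.22, 6.65 and 6.22 in NDF, a difference of 0.48 ± 0.19 (limma adjusted p = 0.528). The second Eng probe set differed by 1.00, and the mean of both by 0.74 (limma adjusted p = 0.206). Beside Eng, 10 of the 14 endothelial markers had all CAF arrays above, where 6.78% of all genes did. The part of endothelium in the Eng value was not tested. Hjv, the hemojuvelin gene, was dim and differed by -0.27 (limma adjusted p = 0.756).

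Among 16 further secreted antagonists and modulators the median was 0.01, and the leading ones went both ways. Fst, which encodes follistatin, an inhibitor of activins and some BMPs, had 11.41, 11.15 and 11.79 in CAF against 10.61, 10.82 and 10.94 in NDF. All CAF arrays lay above, by 0.66 ± 0.22 (limma adjusted p = 0.419), and the second Fst probe set gave 0.63. Fstl1, a follistatin-like gene, differed by -0.66 ± 0.28 (limma adjusted p = 0.571), with -0.63 on its other probe set, and by -0.36 without CAF replicate 3 (limma adjusted p = 0.438). Sostdc1, an antagonist gene active in skin appendages, differed by 0.90 ± 0.37 (limma adjusted p = 0.550), with 1.45 on its other probe set. Without CAF replicate 3 and NDF replicate 1 together the Sostdc1 difference was 0.43 (limma adjusted p = 0.650). The Sostdc1 groups overlapped, with CAF replicate 2 at 6.98 and NDF replicate 2 at 7.21. On the same arrays 10 of 14 keratinocyte markers had all CAF arrays above all NDF arrays, where 6.78% of all genes did. The part of keratinocytes in the Sostdc1 value was not tested.

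Inside the cell, 12 Smad and inhibitor genes had a median of -0.14. Ski, a co-repressor that binds Smads, had 11.70, 11.69 and 11.07 in CAF against 12.16, 12.05 and 12.18 in NDF, a difference of -0.64 ± 0.23 (limma adjusted p = 0.446), with -0.51 on its other probe set. Smad5, a BMP receptor-regulated Smad, differed by -0.26 (limma adjusted p = 0.771), but its other 2 probe sets ran from -0.16 to 0.59, and the mean of all 3 differed by 0.055 (limma adjusted p = 0.984). The pseudoreceptor gene Bambi differed by -0.43 (limma adjusted p = 0.803), and by -0.69 without CAF replicate 3 and -0.16 without CAF replicate 1. The bHLH partner genes of Id proteins, Tcf12, Tcf4 and Tcf3, differed by -0.58, -0.20 and -0.18 (limma adjusted p = 0.595, 0.843 and 0.957). The 4 other Tcf12 probe sets ran from -0.53 to 0.86, the mean of all Tcf12 probe sets differed by -0.17 (limma adjusted p = 0.964), and without CAF replicate 3 the Tcf12 difference was -0.32 (limma adjusted p = 0.473). The Tcf3 difference was 0.28 without NDF replicate 2, and the mean of all Tcf4 probe sets differed by -0.10.

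Among 11 further target genes the median was -0.01, and Gata2 had the largest difference of the wider pathway. Gata2, a transcription factor gene of blood, mast cell and endothelial lineages, had 8.10, 9.34 and 9.33 in CAF against 7.19, 6.44 and 6.98 in NDF. All CAF arrays lay above all NDF arrays, by 2.05 ± 0.39 (1.12 to 2.98, limma adjusted p = 0.110), and the second Gata2 probe set gave 1.62. It passed the threshold in 1 setting, without CAF replicate 1, at 2.46 (limma adjusted p = 0.0413). On the same arrays 10 of 14 endothelial and 3 of 8 mast cell markers had all CAF arrays above, where 6.78% of all genes did. For the mast cell markers Kit, Cpa3, Cma1, Mcpt4 and Tpsb2 the groups overlapped. The part of these cells in the Gata2 value was not tested. Gata3 and Hey1 differed by 0.67 and 0.41 (limma adjusted p = 0.685 and 0.693), and Gata3 by 1.02 without CAF replicate 3 and 0.42 without CAF replicate 1 (limma adjusted p = 0.164 and 0.763).

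**Figure D4:**
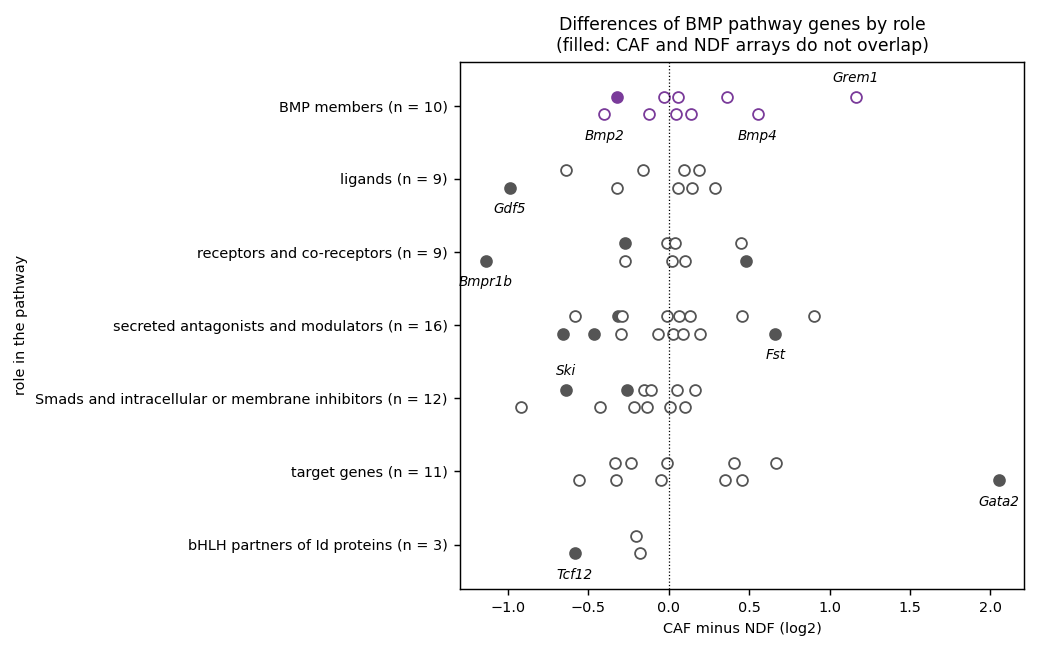
Difference between CAF and NDF (log2, CAF minus NDF) for the 10 BMP genes in the top row and for 60 further pathway genes by role, 1 point per gene, filled where the CAF and NDF arrays do not overlap. Most points lie within 1 unit of 0; Gata2 at 2.05, Grem1 at 1.16 and Bmpr1b at -1.14 lie outside, and none passed the adjusted threshold.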

How the data were processed

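Per the labels' protocols, RNA of sorted fibroblasts went through a single amplification with the WT-Ovation kit and was hybridised to Affymetrix mouse arrays. Per the submitters' processing notes, values came from GCOS and RMA (no versions named). The unit of the deposited values is log2 intensity per probe set, after RMA's background correction, quantile normalisation and probe summary, which compresses dim values and removes array totals. No scanner files or detection calls were used, and the number of arrays limits the precision.

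Of 45101 probe sets 64 were controls and 34945 named 1 gene in the platform annotation. Each of 18193 genes was read through its probe set of highest mean across the 6 arrays. The groups were compared with limma 3.58.1 (lmFit, eBayes, two-sided) in R 4.3.3, with group as the only term and Benjamini-Hochberg adjustment over all genes. Further probe sets were read from a second fit of the same model over all 34945, with its own prior variance and adjustment. Adjusted p-values of the 2 fits are therefore not on one footing. Bmpr1a probe set 1425492_at had a limma adjusted p of 0.699 in the first fit and 0.788 in the second. The procedure was run on simulated independent normal values without an outlying array. These differ from the real arrays, so that run does not bear on the calls or intervals given here. Figures used matplotlib 3.10.9.

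The members, role lists, marker lists and tests were chosen with earlier results of these data known. All members were named. Of the wider pathway, genes past the threshold and the 3 with the smallest p per role list were named, the last as values. The 20 alternatives covered the replicate block, scaling, filters, choice of probe sets, the prior variance, array weights, the threshold and leaving out arrays.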

Additional observations from a re-analysis of the deposited data

How the results depend on the processing

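Under all 20 alternatives 0 of the 10 BMP genes passed the threshold, including array quality weights, under which 438 of all genes did. The count over all genes was 94 as reported, 20 with the replicate block, 155 with an intensity trend, 198 at an adjusted p under 0.1, and 5 to 156 with 1 array left out. The wider pathway had 0 to 1 genes called with 1 array left out, the 1 being Gata2 without CAF replicate 1. Its number of genes at an unadjusted p under 0.05 was 2 to 8 with 1 array left out. No such share of all genes is given for those fits. The deviations of same-numbered CAF and NDF arrays from their group means had r = -0.15, 0.11 and -0.01. With 3 arrays per group these values cannot tell whether the numbers pair samples, and the labels do not say so. The replicate block changed no call of a member, but 0 were called without it. Signs turned in 20 of 190 recomputed member values, those of Bmp4 and Bmp7 among them, and Bmp2, Bmpr1a and Grem1 kept theirs throughout. Array quality weights brought Bmpr1a to -0.19. With CAF replicate 3 and NDF replicate 1 left out, chosen after seeing the data, Bmp4 was at -0.068, Bmp7 at -0.064, Chrdl1 at 0.27, Id1 at -0.40 and Id3 at -0.018. With the mean of all probe sets Bmpr2 was at -0.32, Chrdl1 at 0.064, Id2 at 0.026 and Smad5 at 0.055. With array quality weights Chrdl1 was at 0.54 and Id1 at -0.25, and Id2 was at 0.0068 on quantile normalisation and 0.052 with cyclic loess. With 1 array left out the ranges were -0.042 to 0.62 for Bmp7, -0.62 to 0.53 for Chrdl1, -0.33 to 0.25 for Id1, -0.16 to 0.094 for Id2, -0.0035 to 0.16 for Id3 and -0.46 to 0.28 for Tcf3. The cause of these changes was not tested. Where arrays were left out, fewer samples were fitted.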
